A study of Anas platyrhynchos with 5 samples.

Results

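Bird-lineage and unassigned microRNAs (miRNAs) of the duck feather bulb are 8 of the 134 mature miRNA names in the deposited tables. They were taken by hairpin: every member comes from mir-1552, from mir-2131, or from 1 of 3 hairpins to which the tables give a serial number in place of a family number. These last are called unassigned hairpins 5, 6 and 7 here. The members are both arms of mir-1552, of unassigned hairpin 5 and of unassigned hairpin 7, the 5p arm of mir-2131 and the 5p arm of unassigned hairpin 6. The 3p arms of mir-2131 and of unassigned hairpin 6 are not members and are given as their partners.

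Feather bulbs of 12-month-old ducks gave 5 small RNA libraries, 2 black and 3 white. The black libraries came from Cui Hei, a pure black breed (black replicate 1), and from black bulbs of the Kaiya-Liancheng F2 cross (black replicate 2). The white libraries came from Kaiya (white replicate 1) and Liancheng (white replicate 2), which are pure white breeds, and from white bulbs of the same F2 cross (white replicate 3). The labels give the plumage of both F2 libraries as white-black and the bulb colour in the sample title. Each duck gave 3 bulbs, and the birds of a breed were pooled into 1 library, or for the F2 cross into 1 library per bulb colour. How many birds entered a pool is not given. Whether the black and the white F2 bulbs came from the same birds is not given either, and the tests treat these 2 libraries as independent. The p-values reflect the spread of libraries that also differ in breed. No treatment is given. Each pure breed is 1 library, so the effects of a pure breed and of its library cannot be told apart.

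A miRNA gene is transcribed as a hairpin, which Drosha and Dicer cut into a short duplex of a 5p and a 3p arm. Usually an Argonaute protein keeps 1 of the arms and the other is degraded. The loaded arm pairs with messenger RNAs mainly through its seed, bases 2 to 8. The feather bulb is the growing base of the feather, where keratinocytes of the epidermal collar divide above the dermal papilla and, in pigmented feathers, take up melanin from melanocytes. The families miR-1552 and miR-2131 were catalogued in chicken. Hairpins 5, 6 and 7 carry no family name, so no function is given for them.

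The mature sequences, as deposited, are shown because the members are defined by them alone, with the seed in capitals. In each hairpin the 5p arm stands before the 3p arm, and each arm was spelled the same way in every table that gave it.
miR-1552-5p: uUAGUGCGcaguaagcuagggug
miR-1552-3p: cGCUAGCUgcucugcacuaacu
miR-2131-5p: aUGCAGAAgugcacggaaacagcu
miR-2131-3p (partner): cUGUUACUguucuucugaugg
unassigned hairpin 5, 5p: gAGGGUCUgcagauuucagcc
unassigned hairpin 5, 3p: cUGAAAAAcugcagcacucccgga
unassigned hairpin 6, 5p: gGCUGUGCuguaaguguucccu
unassigned hairpin 6, 3p (partner): gAACCCUUgcagaagagcug
unassigned hairpin 7, 5p: uUCCAGUCcauguaccaucagu
unassigned hairpin 7, 3p: gCUGGAUGcaaggacuggaucc

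The 10 arms were 20 to 24 bases long. None shared its seed with any other of the 134 listed mature names, nor with each other, although 10 pairs of other names did share one. No arm was found whole in another listed hairpin, and none shared a run of 16 bases with one. A read of a member therefore had no second listed hairpin to match over that length.

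The hairpin sequences, as deposited, are shown with both arms in capitals and the loop in lower case, since the folding and arm results below rest on them.
mir-1552: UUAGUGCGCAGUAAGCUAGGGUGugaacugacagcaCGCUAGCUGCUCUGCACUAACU
mir-2131: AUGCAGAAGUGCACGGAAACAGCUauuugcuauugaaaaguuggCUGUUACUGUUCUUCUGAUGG
unassigned hairpin 5: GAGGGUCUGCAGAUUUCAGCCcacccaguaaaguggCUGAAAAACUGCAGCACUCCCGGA
unassigned hairpin 6: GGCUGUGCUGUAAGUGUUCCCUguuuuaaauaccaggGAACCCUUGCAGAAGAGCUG
unassigned hairpin 7: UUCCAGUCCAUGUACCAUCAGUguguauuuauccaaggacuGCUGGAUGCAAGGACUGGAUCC

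All 5 hairpins folded in silico into a single stem and loop, as did all 67 listed hairpins with both arms. Unassigned hairpin 6 had a minimum free energy of -28.2 kcal/mol with 16 base pairs between its arms, and was the 8th most stable of the 67 per base. Hairpin mir-1552 reached -27.8 kcal/mol with 18 pairs between the arms and ranked 11 of 67. The unassigned hairpins 5 (-25.7 kcal/mol, 17 pairs) and 7 (-26.4 kcal/mol, 16 pairs) ranked 25 and 29. Thus 4 of the 5 lay in the more stable part of the 67, whose median was -24.4 kcal/mol and 17 pairs. Hairpin mir-2131 (-21.1 kcal/mol, 15 pairs) was the exception and ranked 65. Dicer and Drosha leave short 3′ overhangs on the duplex. At the 3p arm the predicted overhang was 2 bases in mir-1552 and unassigned hairpin 7, 1 base in mir-2131 and unassigned hairpin 6, and 3 bases in unassigned hairpin 5. An overhang of 2 bases was the one found in 36 of the 67 hairpins.

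The libraries held between 1601329 reads (Liancheng) and 4269854 reads (Kaiya) of mature miRNAs, so a floor of 3 reads stood for 0.703 to 1.87 CPM, the read count scaled to a common library total. Marker miRNAs for the labelled tissue were present. Of the 5 families fixed for keratinocytes and epithelium, miR-205, miR-200a and miR-429 were listed, and miR-200b and miR-203 were not. The listed ones summed to between 75197 and 81224 TMM-normalised CPM in black libraries and between 77665 and 91742 in white libraries. Most of that sum was miR-205b-5p, with a mean of 77995 CPM over all libraries. The melanocyte list (miR-204, with miR-211 not listed) summed to 8813 and 11723 in black libraries and to between 104 and 121 in white libraries. The erythroid list (miR-144, with miR-451 not listed) had 391 and 455 in black libraries and between 79.9 and 277 in white libraries. Endothelial miR-126 (13612 and 17031 in black libraries, 11370 to 17142 in white libraries), mesenchymal miR-214 (350 and 413, against 301 to 445) and muscle miR-499 (41.9 and 59.3, against 21.9 to 79.1) overlapped between the colours. No family of the leukocyte or liver lists was listed by name.

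The members were rare. The 8 of them took 0.0568% of the Cui Hei reads, 0.0622% of the black F2 reads, 0.0481% of the Kaiya reads, 0.0613% of the Liancheng reads and 0.0635% of the white F2 reads, and 0.0568% (8054 reads) over all libraries. The Kaiya share holds no read of unassigned hairpin 6, which the Kaiya table does not list. The total implied by the authors' CPM in that table differed from its listed reads by 0.03 reads, so no read of that hairpin entered it. In the tests below Kaiya was set to 0 for it, and in levels and ratios Kaiya was left out.

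The most abundant member was miR-1552-5p, with 4500 reads in all and rank 50 of 134 names. It had 255.6 TMM-normalised CPM in Cui Hei and 343.9 in black F2, against 289 in Kaiya, 340 in Liancheng and 418.8 in white F2. White F2 was the highest library and Cui Hei the lowest, and the colours overlapped. The next member had 999 reads. All 7 other members lay below the median of 125 CPM that the mean levels of the 134 names had.

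Its partner miR-1552-3p (rank 82) had 70.9 CPM in Cui Hei and 78 in black F2, against 55.9 in Kaiya, 65.7 in Liancheng and 90.6 in white F2. Both black libraries lay inside the white range. For the 5p arm of unassigned hairpin 5 (804 reads, rank 84) the levels were 50.7 CPM in Cui Hei and 58.3 in black F2, against 53 in Kaiya, 39.6 in Liancheng and 81 in white F2. White F2 was again the highest library for both. Unassigned hairpin 6 had, on its 5p arm (667 reads, rank 87), 89.1 CPM in Cui Hei and 51.5 in black F2, against 91 in Liancheng and 31 in white F2. Here Cui Hei and Liancheng were the high libraries and both F2 libraries the low ones, with no value for Kaiya.

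Unassigned hairpin 7 had, on its 5p arm (494 reads, rank 93), 23.1 CPM in Cui Hei and 25.5 in black F2, against 51 in Kaiya, 44 in Liancheng and 28.3 in white F2. Kaiya and Liancheng stood above the other 3 libraries. miR-2131-5p (414 reads, rank 95) had 32.8 CPM in Cui Hei and 25 in black F2, against 34 in Kaiya, 18.6 in Liancheng and 26.8 in white F2. Liancheng was the lowest library and the colours overlapped.

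The 2 rarest members were 3p arms. For unassigned hairpin 7 (112 reads, rank 106) the 3p arm had 4.30 CPM in Cui Hei and 11.6 in black F2, against 10.5 in Kaiya, 4.34 in Liancheng and 8.41 in white F2. For unassigned hairpin 5 (64 reads, rank 112) the 3p arm had 3.49 CPM (13 reads) in Cui Hei and 1.93 CPM (4 reads) in black F2, against 6.08 CPM (25 reads) in Kaiya, 4.95 CPM (8 reads) in Liancheng and 5.35 CPM (14 reads) in white F2. Each of these levels was above the floor of 3 reads, and their counting error is large.

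No library was the highest for most members. Kaiya and white F2 were each the highest for 3 of the 8, but this tally depends on the scaling. With library size alone white F2 was the highest for 3, Cui Hei and Kaiya for 2 each and black F2 for 1. The lowest library was Cui Hei for 3 members and Liancheng for 2 under TMM, and Cui Hei for 2 and Liancheng for 3 with library size alone.

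**Figure D1:**
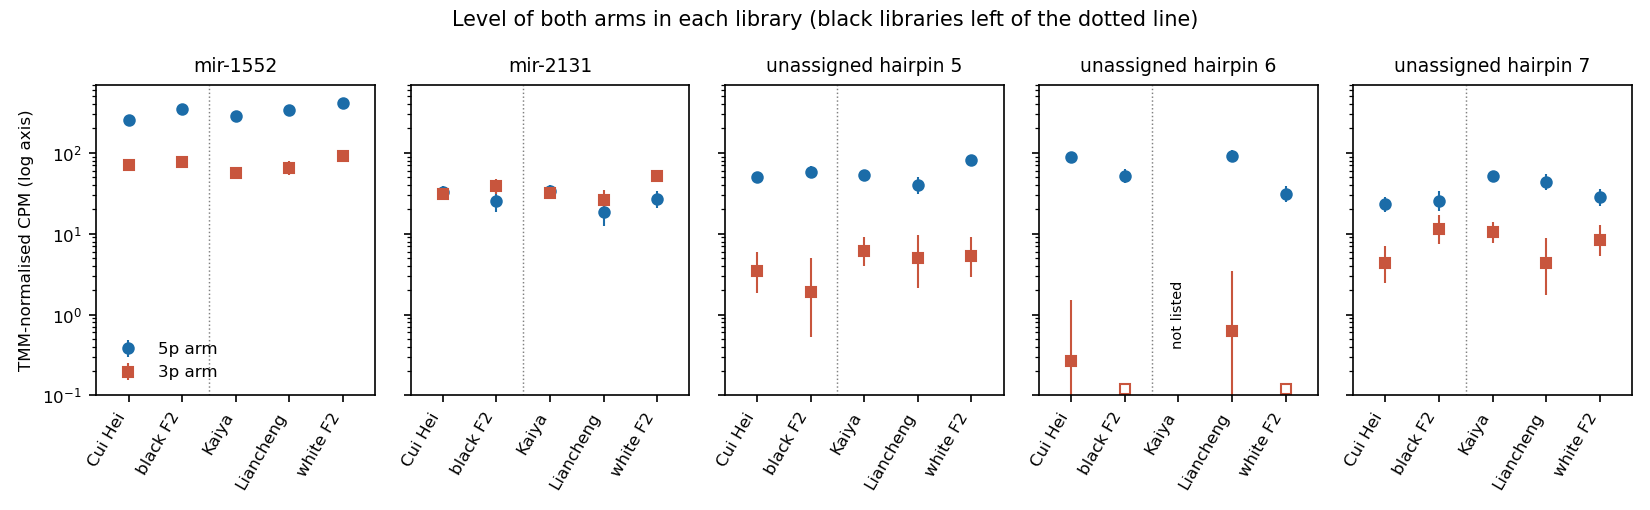
Level of the 5p arm (circles) and 3p arm (squares) of each hairpin, in TMM-normalised CPM on a log axis, in each of the 5 libraries, with 95% exact Poisson intervals for counting error; black libraries stand left of the dotted line, and open squares at the lower edge mark 0 reads. In mir-1552 and in the unassigned hairpins the 5p arm lies above the 3p arm in every library that lists them, in mir-2131 the arms lie close together, and unassigned hairpin 6 has 1, 0, 1 and 0 reads on its 3p arm.

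Reads on both arms are a usual sign that a hairpin is cut into a duplex. Both arms had more than 3 reads in every library for 4 of the 5 hairpins. Under a looser rule, 3 reads summed over the libraries, each arm had support in 63 of the 67 hairpins, these 4 among them. The share of all 67 under the stricter rule is not given. Nearly every read of the member hairpins fell on a listed arm: the tables leave 1 read over, for mir-2131 in Kaiya.

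Hairpin mir-1552 gave 4500 reads on the 5p and 999 on the 3p arm. The 3p share was 21.7% (95% Clopper-Pearson interval 19.4% to 24.1%) in Cui Hei and 18.5% (15.97% to 21.2%) in black F2. It was 16.2% (14.3% to 18.2%) in Kaiya, 16.2% (13.4% to 19.2%) in Liancheng and 17.8% (15.8% to 19.9%) in white F2. The 5p arm was thus the main arm in all 5 libraries, and Cui Hei had the highest 3p share.

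Hairpin mir-2131 was close to even. With 414 reads on the 5p and 507 on the 3p arm, its main arm took 55.0% of the reads, the 2nd most balanced of the 67 hairpins, whose median for the main arm was 99.1%. The 3p share was 48.7% (42.2% to 55.3%) in Cui Hei and 60.6% (51.7% to 69.0%) in black F2, against 48.5% (42.5% to 54.6%) in Kaiya, 58.3% (46.1% to 69.8%) in Liancheng and 66.2% (59.3% to 72.6%) in white F2. In both F2 libraries the interval lay above an even split, and in the 3 pure breeds it included one. The Liancheng interval, wide on 72 reads, also overlapped those of both F2 libraries. The partner miR-2131-3p had 31.1 CPM in Cui Hei and 38.5 in black F2, against 32.1 in Kaiya, 26.0 in Liancheng and 52.4 in white F2.

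Unassigned hairpin 7 gave 494 reads on the 5p and 112 on the 3p arm, the 7th most balanced. Its 3p share was 15.7% (9.24% to 24.2%) in Cui Hei and 31.2% (21.1% to 42.7%) in black F2, against 17.0% (12.6% to 22.2%) in Kaiya, 8.97% (3.68% to 17.6%) in Liancheng and 22.9% (14.95% to 32.6%) in white F2. The F2 libraries were the highest of their colours.

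Unassigned hairpin 5 gave 804 reads on the 5p and 64 on the 3p arm and ranked 17. Its 3p share was 6.44% (3.47% to 10.8%) in Cui Hei and 3.20% (0.879% to 7.99%) in black F2, against 10.3% (6.77% to 14.8%) in Kaiya, 11.1% (4.92% to 20.7%) in Liancheng and 6.19% (3.43% to 10.2%) in white F2. The Kaiya and Liancheng shares were the highest, with intervals that overlap the others.

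Unassigned hairpin 6 was the hairpin without firm support for its 3p arm. It had 1 such read of 333 in Cui Hei, 0 of 107 in black F2, 1 of 148 in Liancheng and 0 of 81 in white F2, 0.299% (0.0362% to 1.08%) in all. No library reached the floor of 3 reads, so whether this arm is absent cannot be read from this depth. An arm this one-sided is common in the tables: the hairpin ranked 45 of 67 for balance.

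**Figure D2:**
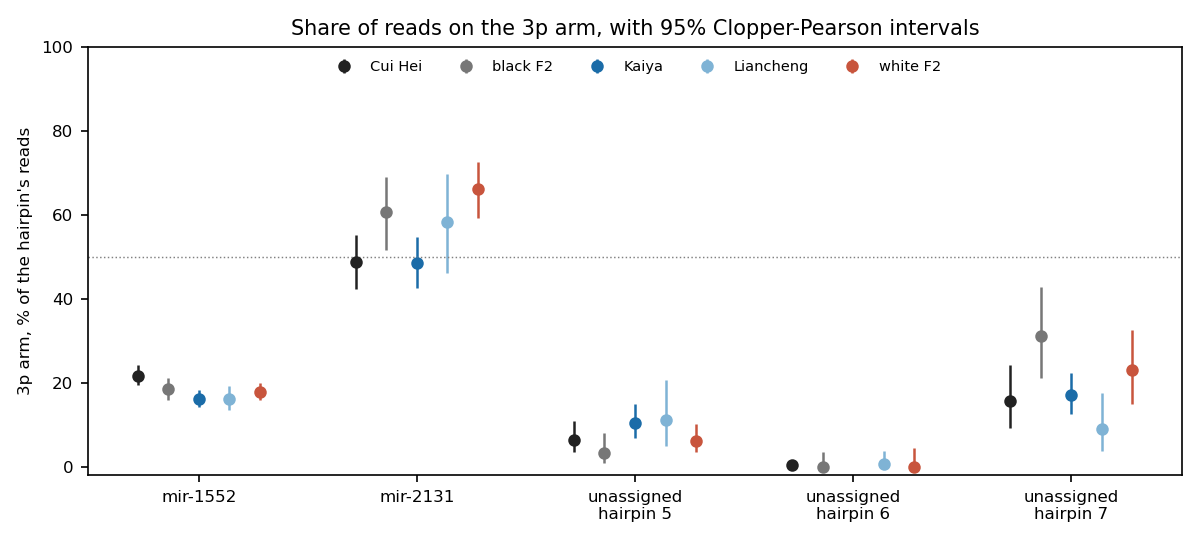
Share of each hairpin's reads on the 3p arm (percent) in each library, with 95% Clopper-Pearson intervals; the dotted line marks an even split, and unassigned hairpin 6 has no Kaiya value. Hairpin mir-2131 lies between 48.5% and 66.2%, above every library of the other 4 hairpins.

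The study's question was which miRNAs differ between black and white bulbs. None of the 8 members passed the test for colour. In edgeR's quasi-likelihood test on the read counts, 2 of 114 tested miRNAs (1.75%) were called at an adjusted p of 0.05, and 4 (3.51%) had an unadjusted p under that value. All 8 members were tested, 1 of them had an unadjusted p under 0.05, and 3 of the 8 had a positive fitted difference. The median log2 fold change was -0.09 over the members and -0.03 over all 114. In such pooled tissue, fewer cells of a type and less RNA per cell cannot be told apart.

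The levels of the 5p arms of the named families overlapped between the colours. miR-1552-5p averaged 299.8 ± 62.5 CPM in black libraries (SD, n = 2) and 349.3 ± 65.4 CPM in white libraries (SD, n = 3), a log2 fold change of -0.22 ± 0.24 (SE; adjusted p = 0.971, edgeR). miR-2131-5p averaged 28.9 ± 5.45 CPM in black libraries and 26.5 ± 7.73 CPM in white libraries, a log2 fold change of 0.12 ± 0.32. For miR-1552-3p the difference was 0.07 ± 0.27. The 95% interval of the miR-1552-5p difference ran from -0.82 to 0.38, and that of miR-2131-5p from -0.67 to 0.90, so neither sign is shown.

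The 2 members nearest to a colour difference were both lower in black bulbs. The 3p arm of unassigned hairpin 5 averaged 2.71 ± 1.11 CPM in black libraries and 5.46 ± 0.569 CPM in white libraries, a log2 fold change of -0.95 ± 0.34 (unadjusted p = 0.0319, the 3rd smallest of 114; adjusted p = 0.945, edgeR). Its black libraries held 13 and 4 reads. On unassigned hairpin 7 the 5p arm averaged 24.3 ± 1.73 CPM in black libraries and 41.1 ± 11.7 CPM in white libraries, a log2 fold change of -0.76 ± 0.32 (unadjusted p = 0.0551; adjusted p = 0.971, edgeR). These were also the 2 of 8 members whose colours did not overlap, against 14.9% of the 114 tested miRNAs in either direction 7.89% with black below white and 7.02% with black above white, where no member lay. Scaled by library size alone, the 5p arm of hairpin 7 overlapped and 1 of 8 members was left. The share over all miRNAs on that scale is not given. The melanocyte marker miR-204 and the erythroid marker miR-144, given above, separate the colours too, and their part in these differences was not tested.

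The other 3 members differed little or with a wide error. On unassigned hairpin 5 the 5p arm averaged 54.5 ± 5.33 CPM in black libraries and 57.9 ± 21.1 CPM in white libraries (log2 fold change -0.09 ± 0.34). The 3p arm of unassigned hairpin 7 averaged 7.93 ± 5.14 CPM in black libraries and 7.73 ± 3.11 CPM in white libraries (-0.08 ± 0.54). That fitted value and the means differ in sign, and both are well inside the error. For the 5p arm of unassigned hairpin 6 the log2 fold change was 0.84 ± 1.47 with Kaiya set to 0, and 0.23 ± 0.58 without the Kaiya library (adjusted p = 0.913, edgeR).

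**Figure D3:**
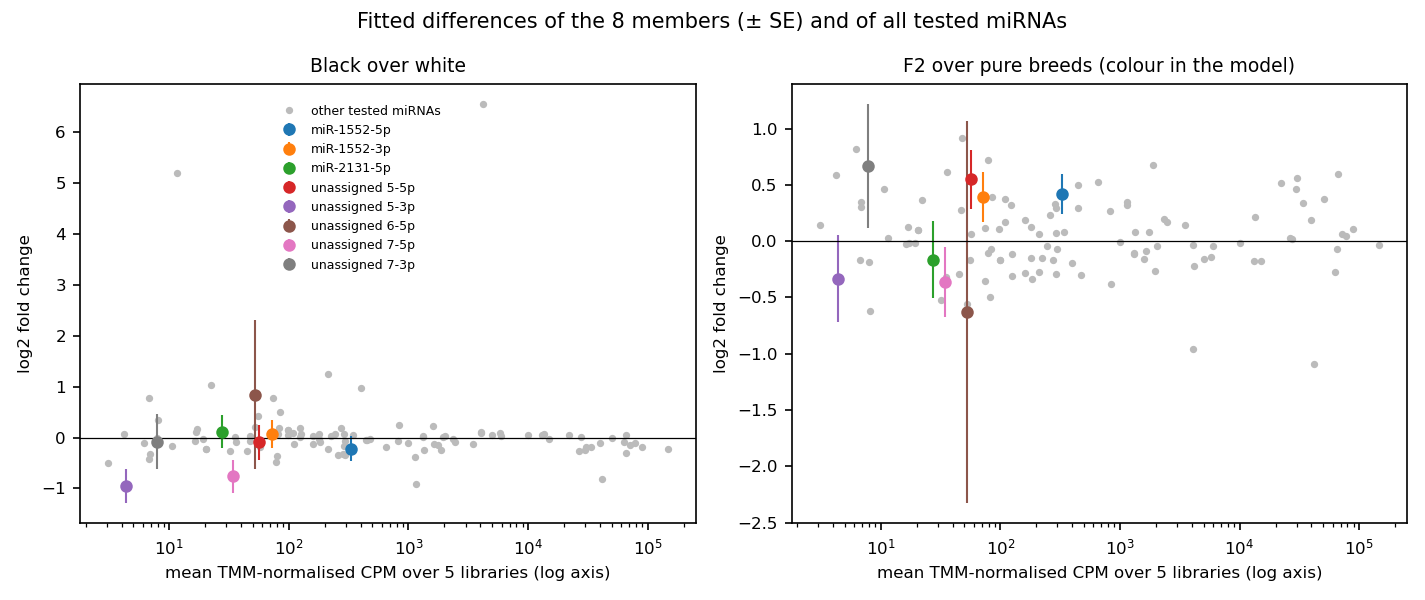
Fitted log2 fold change (± SE for members) against the mean TMM-normalised CPM on a log axis, for black over white (left) and F2 over pure breeds with colour in the model (right); grey points are the other tested miRNAs, and the mean and fit of unassigned 6-5p count Kaiya as 0. The members lie between -0.95 and 0.84 for colour, and unassigned 6-5p has the widest error in both panels.

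Within the F2 cross, where both colours share their parent breeds, black F2 stood over white F2 by a log2 ratio of -0.28 for miR-1552-5p (95% counting interval -0.42 to -0.15), -0.21 for miR-1552-3p (-0.51 to 0.08) and -0.09 for miR-2131-5p (-0.64 to 0.44). Among the unassigned 5p arms, that of hairpin 5 had -0.48 (-0.81 to -0.15), that of hairpin 7 had -0.15 (-0.68 to 0.38), and that of hairpin 6 had 0.74 (0.31 to 1.17). These are single libraries with no replicate check, and the intervals cover counting error only. In each pair of libraries 6 of the 8 members were compared, since the 3p arm of hairpin 5 never had 50 reads, the 3p arm of hairpin 7 had them only in pairs with Kaiya, and hairpin 6 has no Kaiya value. The size criterion set here was a log2 ratio of 1 in either direction. None of these 6 reached it in the F2 cross, against 4.81% of the miRNAs compared. The 3p arm of hairpin 5, not compared, had 4 reads in black F2 and 14 in white F2, a log2 ratio of -1.47.

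Cui Hei against Kaiya gave 2 of the 6 compared members past that size, both of unassigned hairpin 7: -1.14 (-1.52 to -0.78) for the 5p arm and -1.28 (-2.21 to -0.43) for the 3p arm, against 5.56% of all miRNAs compared. With library size alone the 5p arm had -0.99, just short of that size, and the 3p arm had -1.13. Against Liancheng, Cui Hei differed by -0.93 (-1.40 to -0.46) for that 5p arm and by 0.82 (0.23 to 1.45) for miR-2131-5p, where 8.57% of all miRNAs and no compared member passed the size criterion. Black F2 over Kaiya was -1.00 (-1.46 to -0.56) for the 5p arm of hairpin 7, just short of the criterion unrounded, which no compared member passed there, against 6.73% of all. Black F2 over Liancheng likewise had no compared member past it, against 6.8% of all. Cui Hei over white F2 had 1, the 5p arm of hairpin 6 at 1.53 (1.17 to 1.89), against 8.41% of all. On the 5p arm of hairpin 7 the F2 ratio of -0.15 stood beside -1.14 and -0.93 in the pure breeds, and that difference was not tested.

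The size criterion was also counted over all pairs of libraries. Between colours 3 of 36 member ratios (8.33%) passed it, and within a colour 3 of 24 (12.5%). Over all miRNAs compared, the share per pair ran from 4.81% to 8.57% between colours and from 1.89% to 12.6% within a colour. The member shares lay near the upper ends of these ranges, which are of single pairs. The share of all miRNAs pooled over the pairs is not given. The 10 pairs share libraries, so these shares are a description. Kaiya over Liancheng, both white, gave 1.27 (0.10 to 2.67) for the 3p arm of unassigned hairpin 7 and 0.87 (0.30 to 1.49) for miR-2131-5p, where 12.6% of all miRNAs passed. White F2 over Liancheng gave 1.03 (0.62 to 1.46) for the 5p arm of hairpin 5 and -1.56 (-1.97 to -1.16) for the 5p arm of hairpin 6, where 9.71% passed. White F2 over Kaiya had no compared member past the criterion, against 6.67% of all. Between the black libraries, black F2 over Cui Hei, no compared member passed, against 1.89% of all, and the 5p arm of hairpin 6 had the largest ratio of the 6, -0.79 (-1.12 to -0.47). Of the 16 member ratios with fewer than 50 reads, 5 lay past 1 in either direction. All 5 involved black F2. The 3p arm of hairpin 5 had -1.66 over Kaiya, -1.36 over Liancheng and the -1.47 over white F2 given above. The 3p arm of hairpin 7 had 1.43 over Cui Hei (24 and 16 reads) and 1.42 over Liancheng (24 and 7 reads). Those of hairpin 5 all rest on the same 4 reads in black F2, and those of hairpin 7 on the same 24 reads. The share over all miRNAs with fewer than 50 reads is not given, so the 5 are a description.

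Breeds could not be tested singly, but the 2 F2 libraries could be set against the 3 pure breeds with colour in the model. No member passed. Of the 114 miRNAs 0 (0%) were called by edgeR and 7 (6.14%) had an unadjusted p under 0.05, none of them a member, and DESeq2 called 5, again with no member. The median log2 fold change was 0.11 over the members and 0.03 over all 114. This fit has 2 residual degrees of freedom.

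Both arms of mir-1552 were higher in every F2 library than in any pure breed. miR-1552-5p averaged 381.4 ± 53 CPM in F2 libraries (SD, n = 2) and 294.9 ± 42.5 CPM in pure breeds (SD, n = 3), a log2 fold change of 0.42 ± 0.18 (adjusted p = 0.695, edgeR). miR-1552-3p averaged 84.3 ± 8.86 CPM in F2 libraries and 64.1 ± 7.60 CPM in pure breeds, a log2 fold change of 0.39 ± 0.22 (adjusted p = 0.747, edgeR). Unassigned hairpin 5 lay the same way on its 5p arm, with 69.7 ± 16.1 CPM in F2 libraries and 47.8 ± 7.15 CPM in pure breeds (0.55 ± 0.26, adjusted p = 0.701, edgeR). None of these differences passed the test. For black F2 the margin over the nearest pure breed was within counting error in all 3. For miR-1552-5p the log2 ratio over Liancheng was 0.02 (-0.15 to 0.18). For miR-1552-3p it was 0.14 over Cui Hei (-0.15 to 0.43), and for the 5p arm of hairpin 5 it was 0.14 over Kaiya (-0.20 to 0.46). Without the white F2 library the log2 fold change was 0.12 for miR-1552-3p, 0.18 for the 5p arm of hairpin 5 and 0.41 for miR-1552-5p, and without Liancheng it was 0.31 for the 5p arm of hairpin 5. The 3 members are set against 18.4% of the 114 miRNAs with both F2 libraries above all pure breeds.

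Just 1 member, the 5p arm of unassigned hairpin 6, had both F2 libraries below the listed pure breeds. The share over all tested was 10.5%, with Kaiya as 0, a rule under which this arm overlaps. It averaged 41.2 ± 14.6 CPM in F2 libraries (SD, n = 2) and 90.1 ± 1.35 CPM in Cui Hei and Liancheng (SD, n = 2). The log2 fold change was -1.17 ± 0.33 without the Kaiya library (adjusted p = 0.289, edgeR), -0.63 ± 1.70 with Kaiya as 0, and 1.33 without the Liancheng library. In all, 3 of 8 members did not overlap between stocks with Kaiya as 0, the rule behind the 28.9% of the 114. Leaving Kaiya out for the 5p arm of hairpin 6 made it 4 of 8. The other members overlapped, with -0.16 ± 0.34 for miR-2131-5p, -0.33 ± 0.39 for the 3p arm of hairpin 5, -0.37 ± 0.31 for the 5p arm and 0.67 ± 0.55 for the 3p arm of hairpin 7, which had 0.0031 without Cui Hei and 1.40 without white F2.

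The balance of the arms was compared as the log2 ratio of 5p to 3p reads, by limma, over 46 hairpins whose arms each had 50 reads or more in all. For colour 1 hairpin (2.17%), not a member's, was called and 3 (6.52%) had an unadjusted p under 0.05. Unassigned hairpin 5 was 1 of these, with 4.28 ± 0.667 in black libraries (SD, n = 2) and 3.30 ± 0.505 in white libraries (SD, n = 3), a difference of 0.98 ± 0.40 (adjusted p = 0.714, limma). The difference was 0.18 ± 0.38 in mir-2131, -0.66 ± 0.54 in unassigned hairpin 7 and -0.32 ± 0.22 in mir-1552. Unassigned hairpin 6 had too few 3p reads to test.

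Between stocks, a comparison added after the shares had been seen, 0 of 46 hairpins (0%) were called by limma and 9 (19.6%) had an unadjusted p under 0.05. Of the member hairpins 3 were among these 9. In unassigned hairpin 5 the log2 ratio was 4.31 ± 0.623 in F2 libraries and 3.28 ± 0.470 in pure breeds, a difference of 0.90 ± 0.24 with colour in the model (adjusted p = 0.150, limma). In unassigned hairpin 7 it was 1.43 ± 0.425 in F2 libraries and 2.64 ± 0.535 in pure breeds, a difference of -1.13 ± 0.32 (adjusted p = 0.150, limma). In mir-2131 it was -0.79 ± 0.245 in F2 libraries and -0.11 ± 0.322 in pure breeds, a difference of -0.73 ± 0.27 (adjusted p = 0.183, limma). These differences did not pass the test. Without the Liancheng library these 3 were the only hairpins called (adjusted p = 0.0431 each, limma), at 0.86, -0.91 and -0.87. In that run every member hairpin tested had the same SE of 0.27, which therefore does not reflect each hairpin's own spread. Without the Kaiya library 0 hairpins were called, and these 3 had adjusted p of 0.133, 0.133 and 0.269 (limma). With every library kept, mir-1552 had 0.03 ± 0.25. The arm fits did not weight a ratio by its reads. The 3p arm of hairpin 5 had 4 reads in black F2 and 14 in white F2, and that of hairpin 7 had 24 and 22. With at least 200 reads required per arm, hairpins 5 and 7 were not tested, and mir-2131 had an adjusted p of 0.244 (limma).

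The spread between libraries, as the SD of log2 CPM over the 5 libraries, had a median of 0.26 over the 114 tested miRNAs. miR-1552-5p (0.27, rank 54 from the most variable) and miR-1552-3p (0.26, rank 56) were near it, although the counting error of miR-1552-5p in the average library was only 3.33%. The 5p arm of unassigned hairpin 6, over the 4 libraries that list it, had 0.73 and rank 9, with a counting error of 7.74%. That of unassigned hairpin 7 had 0.50 (rank 22) with a counting error of 10.1%.

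The rarer 3p arms varied as much but on fewer reads. The 3p arm of unassigned hairpin 7 had an SD of 0.64 with a counting error of 21.1%, and that of hairpin 5 had 0.58 with 28.0%. For miR-2131-5p the SD was 0.34 and for the 5p arm of unassigned hairpin 5 it was 0.37.

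**Figure D4:**
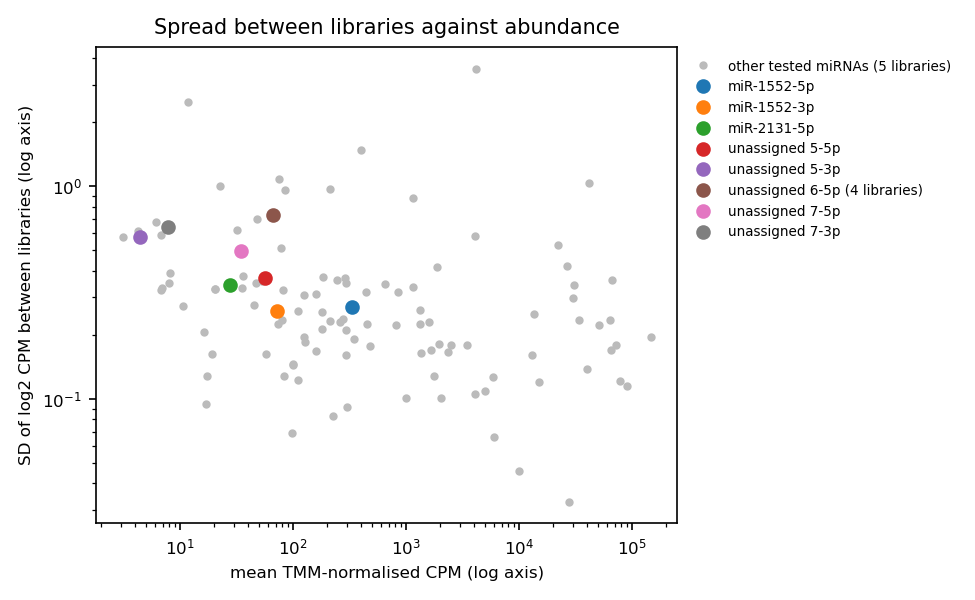
SD of log2 CPM between libraries against mean TMM-normalised CPM, both on log axes, for the 8 members (coloured) and the other tested miRNAs (grey). Unassigned 6-5p, at 0.73 over 4 libraries, is the most variable member, and both arms of mir-1552, at 0.27 and 0.26, lie near the median.

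For each member with a mean of at least 10 CPM, the miRNAs with the most similar pattern over the libraries were sought among 110 candidates (112 for hairpin 6), by the root-mean-square difference of mean-centred log2 CPM. With so few libraries these are descriptions. miR-1552-5p was closest to miR-148a-3p (0.078), which had 24247 CPM in Cui Hei and 29661 in black F2, against 25203 in Kaiya, 29220 in Liancheng and 40923 in white F2. miR-1552-3p was closest to miR-27b-3p (0.086) and miR-148a-5p (0.086). Unassigned hairpin 5 was, on its 5p arm, closest to the partner arm miR-2131-3p (0.051), which has another seed. For miR-2131-5p it was miR-153-3p (0.151).

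The 5p arm of unassigned hairpin 6 was closest to miR-196-1,2,3-5p (0.158, over 4 libraries), whose family lies in the HOX clusters. That miRNA had 4873 CPM in Cui Hei and 3546 in black F2, against 4712 in Liancheng and 1947 in white F2. Its highest level, 5154 CPM, was in Kaiya, which does not list hairpin 6 and was left out of the match. The order of the libraries was the same but for Cui Hei and Liancheng, whose levels of hairpin 6 differ by less than their counting error. The 5p arm of unassigned hairpin 7 had no near match: its closest were miR-31-3p (0.282) and miR-190-5p (0.302).

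Other miRNAs known mainly outside mammals were set beside the members. The list found 12 arms of 6 hairpins (mir-460a, mir-1662, mir-2188, mir-6564, mir-6595 and mir-6612), of which 9 arms were tested and 0 called by edgeR for colour or for stock. Their median log2 fold change was 0.02 for colour and 0.17 for stock. Their mean levels ran from 0.184 to 22123 CPM, 4 of the 12 arms above miR-1552-5p and 8 below it. The highest, miR-6595-3p, had 20064 CPM in Cui Hei and 25038 in black F2, against 11392 in Kaiya, 25210 in Liancheng and 28910 in white F2. The remaining unassigned hairpins of the tables, 1 to 4, also held abundant arms, with a median of 30751 CPM for the 3p arm of hairpin 2 and 13283 CPM for that of hairpin 4. No member approached these 2 levels.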

How the data were processed

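Small RNA reads of 5 pooled libraries were processed by the authors with miRDeep2 2.1.2, per the series' design text, and with FastQC and Bowtie 0.12.2, per the submitters' processing notes. Which genome build they mapped to is not given in the sources. The values used are raw read counts per mature miRNA, as deposited by the authors. Each hairpin's total equalled its mature plus remaining reads, and the authors' CPM equalled count over table total to within 0.005.

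A name under several hairpins was counted once, with its highest count. Counts were fitted with edgeR 4.0.16 (quasi-likelihood, TMM, filterByExpr by colour, Benjamini-Hochberg over 114 of 134 names) in R 4.3.3. Each SE was obtained by dividing a fitted change by the root of its F value. Arm ratios (pseudocount 0.5) were fitted with limma 3.58.1. DESeq2 1.42.0 was an alternative. Hairpins were folded with RNAfold (ViennaRNA 2.7.2). Single-library ratios used TMM-scaled counts and at least 50 reads over the libraries compared. The intervals of levels, shares and single-library ratios are exact at the 95% level. Like the floor of 3 reads, they cover counting error only, since reads carry no molecular identifiers. The 95% intervals of fitted log2 fold changes are approximate, from the SE and a t distribution, and reflect the spread between libraries. The tests were also run on simulated counts that held no differences between single breeds, and no result given here rests on those runs. Members, lists and rules were chosen with earlier results of these data known. Arm balance by stock, and tallies with library size alone, were added after seeing the data. All 8 members are described. For members of at least 10 CPM the rule names the 2 most alike miRNAs of another hairpin with at least 50 reads. Reference coordinates of the hairpins were not used here.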

Additional observations from a re-analysis of the deposited data

Results flagged for a closer look

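In 3 of the 8 members the black over white difference, on TMM-normalised CPM, had opposite signs in the F2 cross and in the pure breeds, as it had in 23 of all 114 tested miRNAs (20.2%). The difference between the stocks was not tested, since a fit with an interaction term would leave 1 residual degree of freedom. For miR-1552-3p black F2 over white F2 was -0.21, against 0.34 for Cui Hei over Kaiya and 0.11 for Cui Hei over Liancheng. The F2 log2 ratio minus the mean of the pure-breed ones was thus -0.44. The counting intervals of the F2 ratio (-0.51 to 0.08) and of Cui Hei over Liancheng (-0.22 to 0.45) included no difference. That of Cui Hei over Kaiya (0.08 to 0.60) did not. For the 3p arm of unassigned hairpin 7 the F2 ratio was 0.46, against -1.28 and -0.01, a gap of 1.11 that rests on 24 and 22 reads in black F2 and white F2. For the 5p arm of unassigned hairpin 6 the F2 ratio was 0.74, against -0.03 for Cui Hei over Liancheng, a gap of 0.77, with Kaiya not listed. These signs depend on the scaling. With library size alone Cui Hei over Liancheng was 0.057 for that arm and 0.074 for the 3p arm of hairpin 7, so neither was opposite in every pair, whereas miR-1552-3p still was (-0.033 in the F2 cross, 0.50 and 0.20 in the pure breeds). On that scale the 5p arms of hairpins 5 and 7 were opposite in their place, again 3 members.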

How the results depend on the processing

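No member was called for colour or stock under any alternative run (3 other scalings, 2 read filters, summed lines, limma-voom, the DESeq2 Wald test, each library left out and, for colour only, stock as a block or the most abundant miRNA left out). Small colour differences turned sign: under upper-quartile scaling miR-1552-3p had -0.064 and miR-2131-5p -0.036, where the median of all miRNAs moved to -0.16. With library size alone, where it moved to 0.10, miR-2131-3p had 0.058, the 5p arm of unassigned hairpin 5 had 0.055 and the 3p arm of hairpin 7 had 0.055. For stock, upper-quartile scaling moved that median to 0.11.

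Leaving out each library in turn gave colour differences of -0.44 to 0.0075 for miR-1552-5p, -0.089 to 0.28 for miR-1552-3p, -0.083 to 0.33 for miR-2131-5p, -0.23 to 0.24 for miR-2131-3p, -0.26 to 0.22 for the 5p arm of hairpin 5 and -0.88 to 0.54 for the 3p arm of hairpin 7, with 2 to 3 miRNAs called. The 5p arm of hairpin 7 kept its sign, at -0.98 to -0.57, as did the 3p arm of hairpin 5, at -1.48 to -0.65. For the 5p arm of hairpin 6 the range was 0.23 (without Kaiya) to 2.36 (without Liancheng). Each run that kept Kaiya counted it as 0 on the white side for that arm, so its sign is no check of stability. Stock differences ran from -0.47 to 0.032 for miR-2131-5p, 0.12 to 0.47 for miR-1552-3p, 0.30 to 0.41 for miR-1552-5p, 0.18 to 0.69 for the 5p arm of hairpin 5, 0.0031 to 1.40 for the 3p arm of hairpin 7, -0.86 to -0.17 for the 3p arm of hairpin 5, -1.17 to 1.33 for the 5p arm of hairpin 6 and -0.86 to 0.13 for the 5p arm of hairpin 7, with 0 to 1 called. For stock the DESeq2 Wald test called 5, and limma-voom gave 0.87 for the 5p arm of hairpin 6 with Kaiya as 0. The causes were not tested.

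The arm balance count for colour was 0 with at least 10 or at least 200 reads per arm and 0 to 1 with a library left out, where mir-2131 ran from -0.16 to 0.53. For stock it was 0 to 3, and mir-1552 ran from -0.16 to 0.29. With library size alone, miR-1552-5p had log2 ratios of -0.10 for black F2 over white F2 and -0.02 for Cui Hei over Kaiya. No paired analysis was made, because the replicate numbers follow accession order and pair no libraries. Whether the 2 F2 libraries share birds is not given. Depth limits the 3p arms of hairpins 5, 6 and 7 most, with 64, 2 and 112 reads in all.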
